A study of Homo sapiens with 9 samples.

Results

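The Jumonji histone demethylase genes KDM3A, KDM4A, KDM4B, KDM4C, KDM2A, KDM2B, KDM5B and KDM6B were examined for HIF-1α binding in hypoxic and normoxic neuroblastoma cells. Each called interval with a summit inside the window set for a gene was taken, over 8 windows of 60 to 500 kb that add up to 1440 kb of hg19. A call is named by its window, and which gene it lies in was not analysed. These windows held 44 called intervals, 39 of them in hypoxia lists and 5 in normoxia lists. Joined where they shared at least 1 bp, they made 18 regions of the 9420 found over all 6 lists. HIF-1α, the part of the factor HIF-1 whose level follows oxygen, was mapped by chromatin immunoprecipitation with sequencing (ChIP-seq) in SK-N-BE(2), an established human neuroblastoma line with amplified MYCN. For 48 hours the cells stood in normoxia, at 21% oxygen, for 3 libraries, or in hypoxia, at 1% oxygen, for 3 more, and the labels name no change of genotype. The 3 input libraries all came from 21% oxygen. All cells are 1 line. The labels leave unsaid whether each library had its own culture, and a p-value here therefore reflects library-to-library spread that may be technical.

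Jumonji demethylases remove methyl groups from histone lysines with the help of iron, 2-oxoglutarate and molecular oxygen, so their chemistry itself consumes oxygen. HIF-1α is hydroxylated and degraded in oxygenated cells by enzymes of the same dioxygenase superfamily, and accumulates when oxygen is low. HIF binds DNA at the core motifs ACGTG and GCGTG, and genes of several histone demethylases, KDM3A and KDM4B among them, are known hypoxia-induced genes in other cells. The comparison asks at which of these genes HIF-1α was found in hypoxic cells and whether it was also found there in normoxic cells.

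The promoter sequences are shown because the HIF core is the sequence that the immunoprecipitated factor reads. A RefSeq table of GRCh38.p14 held all 8 genes. The runs are the 250 bases before the first listed start of the 4 genes with the highest folds in hypoxia, and of KDM4A, which had no call, for contrast. Capitals mark ACGTG or GCGTG on either strand. Where a CACGTG stands in capitals, it holds an ACGTG on each strand and counts as 2 cores.

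KDM3A, chromosome 2, 86441121 to 86441370, plus strand: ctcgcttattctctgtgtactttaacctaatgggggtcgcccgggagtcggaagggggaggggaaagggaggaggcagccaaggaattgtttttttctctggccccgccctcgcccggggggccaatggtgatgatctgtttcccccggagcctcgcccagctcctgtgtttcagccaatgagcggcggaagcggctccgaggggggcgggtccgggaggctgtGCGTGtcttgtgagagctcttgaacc
KDM4B, chromosome 19, 4968863 to 4969112, plus strand: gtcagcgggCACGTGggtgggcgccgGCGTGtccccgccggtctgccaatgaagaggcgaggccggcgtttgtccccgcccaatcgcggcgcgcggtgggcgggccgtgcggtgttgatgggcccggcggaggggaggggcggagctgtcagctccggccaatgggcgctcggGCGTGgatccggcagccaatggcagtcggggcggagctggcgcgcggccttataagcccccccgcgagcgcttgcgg
KDM4C, chromosome 9, 6757723 to 6757972, plus strand: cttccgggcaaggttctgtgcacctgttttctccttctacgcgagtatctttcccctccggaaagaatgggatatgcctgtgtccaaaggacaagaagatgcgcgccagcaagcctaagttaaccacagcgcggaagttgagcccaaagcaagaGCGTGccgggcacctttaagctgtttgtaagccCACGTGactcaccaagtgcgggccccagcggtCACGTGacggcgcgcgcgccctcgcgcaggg
KDM5B, chromosome 1, 202808422 to 202808671, minus strand: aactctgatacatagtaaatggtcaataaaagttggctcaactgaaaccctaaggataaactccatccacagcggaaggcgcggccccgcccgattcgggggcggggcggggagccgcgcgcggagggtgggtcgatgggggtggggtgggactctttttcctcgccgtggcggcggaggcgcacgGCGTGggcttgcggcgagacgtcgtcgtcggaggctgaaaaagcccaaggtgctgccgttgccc
KDM4A, chromosome 1, 43649899 to 43650148, plus strand: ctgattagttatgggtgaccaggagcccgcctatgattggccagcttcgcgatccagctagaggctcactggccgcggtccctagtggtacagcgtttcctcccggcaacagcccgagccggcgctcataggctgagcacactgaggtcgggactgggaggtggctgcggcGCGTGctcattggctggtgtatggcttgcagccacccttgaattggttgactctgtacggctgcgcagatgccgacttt

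At the first listed start, 7 of the 8 genes (87.5%) held at least 1 core in these 250 bases. Over the first starts of all 27305 genes of the table, 43.1% did. Over all listed starts the share was 78.6% (11 of 14) for these genes and 43.2% of 35116 promoters in the table. KDM4C had 5 cores, which include 2 CACGTG palindromes, and KDM4B had 4, which include 1. KDM2A had 3 cores, and KDM3A, KDM4A, KDM5B and KDM6B had 1 each. KDM2B had no match at its first listed start and 1 at its second, while the second starts of KDM2A and KDM6B had none. The palindrome, which is also the E-box read by MYC family proteins, was in 25% of the 8 first-start promoters and in 6.49% of those of all genes, and over all starts in 14.3% and 6.34%. Of 21 other Jumonji domain genes listed for comparison, 17 were in the table, of which 8 (47.1%) held a core and 3 (17.6%) held the palindrome at the first start. These matches describe letters of a GRCh38.p14 table, and the ChIP intervals are on hg19, so whether an interval covers any of these promoters was not analysed here.

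HIF-1α was called in the windows more often in hypoxia. Normoxia 1, 2 and 3 had 2, 1 and 2 intervals in the windows, and hypoxia 1, 2 and 3 had 10, 13 and 16. The groups did not overlap, at 13 ± 3 intervals in hypoxia and 1.67 ± 0.577 in normoxia (mean ± SD, n = 3 each), a difference of 11.3. By a two-sided exact permutation test p was 0.1, and no smaller value can come from 3 libraries against 3. The normoxia lists had a call in 1, 1 and 2 of the 8 windows and the hypoxia lists in 6, 6 and 7, which is 6.33 ± 0.577 windows against 1.33 ± 0.577 (exact permutation p = 0.1, n = 3 each). The lists differ in length in the same direction, from 32 to 109 intervals in normoxia and from 1408 to 7619 in hypoxia.

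As a share of each list, the windows went the other way. They held 2.67%, 3.13% and 1.83% of the normoxia lists and 0.710%, 0.223% and 0.210% of the hypoxia lists. Each normoxia share rests on 1 or 2 intervals. All of these lay in the same KDM4C region except 1 at KDM3A in normoxia 3, and the 2 of normoxia 1 were parts of that KDM4C region. The normoxia shares therefore describe these sites and not the 8 windows as a set. The exact binomial 95% interval of normoxia 2 ran from 0.0791% to 16.2%, a range that covers counting error only. The mean shares were 2.54 ± 0.654% and 0.381 ± 0.285% (SD, n = 3 each; exact permutation p = 0.1). With every list reduced to its 32 intervals of smallest p, the length of the shortest, the direction turned to 1.04 percentage points more in hypoxia (exact permutation p = 1). At that equal length KDM3A was in all 3 hypoxia lists and KDM4B in 1, and KDM4C was in all 3 normoxia lists.

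Of the 18 regions, 12 (66.7%) were called in at least 2 of the 3 hypoxia lists, named replicated here. Over all 9420 regions 43.9% were. All 3 hypoxia lists held 8 of the 18 (44.4%), against 11.5% over all regions. A normoxia call lay in 2 of the 12 replicated regions, 16.7% with an exact binomial 95% interval of 2.09% to 48.4%, and over all replicated regions the share was 2.25%. The 2 are the main sites of KDM3A and KDM4C. The remaining 6 regions had 1 hypoxia list each. The 4 regions of exactly 2 hypoxia lists, those of KDM2A and KDM2B and 2 of KDM4B, all include hypoxia 3, and without that library the replicated regions were the 8 called in all 3 lists.

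Depth was similar, with a background of 6.02 to 6.69 reads per kb in the normoxia libraries and of 5.31 to 6.62 in the others. Hypoxia 1 had a short extension like the normoxia libraries, 46 to 48 bp over these 4, and hypoxia 2 and 3 stood apart at 155 and 167 bp. The fold of an interval is the authors' ratio of reads at its summit to the local background, with 1 added to each. The genome-wide background was 0.283 to 0.318 reads in the 4 libraries of short extension, and 0.920 and 0.886 in hypoxia 2 and 3. The added 1 therefore lowers folds more in the first 4. Reads and background are both counted over the extension, so hypoxia 1 is given beside hypoxia 2 and 3 throughout. Only hypoxia 1, whose extension is like that of normoxia, is compared in reads with it. The extension is read from the shortest interval of a list and is no measured fragment length. What the extension contributes to the higher folds and longer lists of hypoxia 2 and 3 was not tested. Fold, p and rank describe an interval within its own list. The local background at members was at most 5.30 times the genome-wide value.

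**Figure D1:**
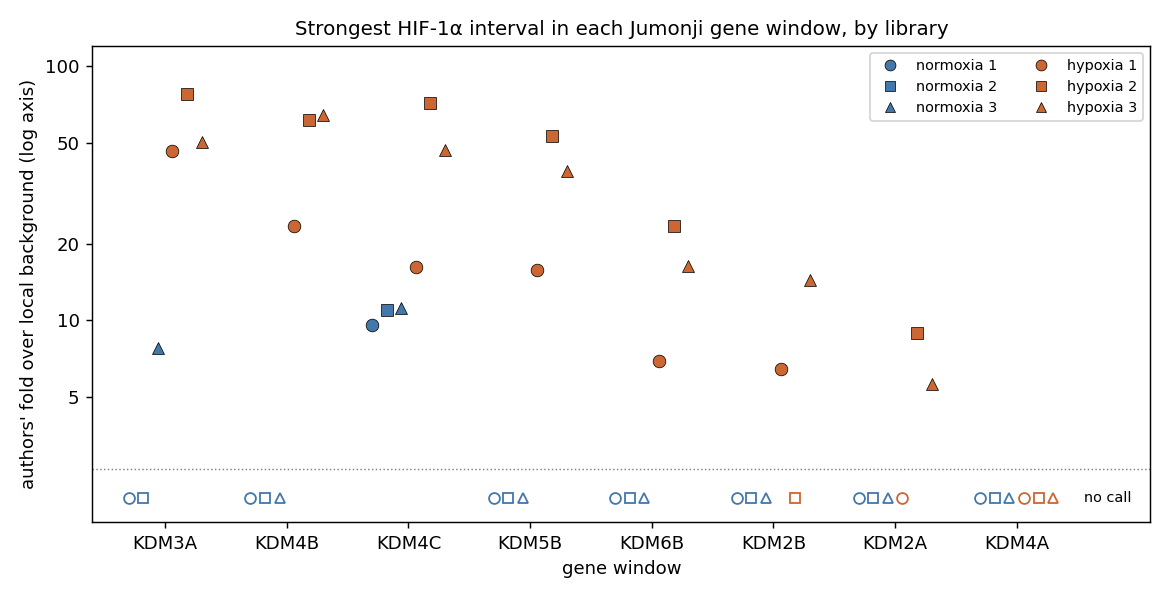
Fold of the strongest interval in each gene window by library on a log axis, with blue markers for normoxia, orange for hypoxia, and open markers where a library had no call. KDM3A, KDM4B, KDM4C, KDM5B and KDM6B have a call in all 3 hypoxia libraries, KDM4C is the only window with a call in all 3 normoxia libraries, and KDM4A has none.

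KDM3A removes mono- and dimethyl marks from H3K9, a mark of silent chromatin. Its window held 1 region, chr2:86667604-86668666, called in all 3 hypoxia lists and in normoxia 3. The fold was 46.5, 77.6 and 50.1 in hypoxia 1, 2 and 3 and 7.78 in normoxia 3, with no call in normoxia 1 and 2. The fold of hypoxia 1, the hypoxia library of like extension, was above the normoxia 3 value. By fold it ranked 1 of 1408 in hypoxia 1, 20 of 5833 in hypoxia 2 and 76 of 7619 in hypoxia 3, and 37 of 109 in normoxia 3. The strongest hypoxia summits lay within 14 bp of each other, and hypoxia 1 had 4 summits across the interval, with 23, 63, 49 and 9 reads in coordinate order. Normoxia 3 had 2 summits of 10 reads each between the outer hypoxia 1 summits. A stretch of this window's length, 90 kb, held a replicated hypoxia region in 9.55% of the genome and a region with a normoxia call in 0.351%, over stretches that include gene-poor DNA.

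KDM4A, KDM4B and KDM4C remove trimethyl marks from H3K9 and H3K36, and the 3 paralogs differed in their calls. The KDM4A window had no call in any of the 6 lists. It is also 90 kb long, a length at which most stretches have none, and a missing call does not show that binding was absent.

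KDM4B had the most regions, 6 in 220 kb, of which 3 were replicated and none had a normoxia call. The leading one, chr19:4968265-4969085, had folds of 23.5, 61.0 and 64.1 in hypoxia 1, 2 and 3, behind 32, 158 and 159 reads. It was called in every hypoxia list, with summits 34 bp apart or less. A second, chr19:5164846-5165179, lay 196 kb farther along the chromosome, with folds of 9.90 in hypoxia 2 and 13.8 in hypoxia 3. Another, chr19:5035770-5036087, had folds of 8.33 in hypoxia 2 and 4.39 in hypoxia 3, at summits 135 bp apart. Hypoxia 1 called neither of these weaker sites. The 3 regions of a single list had folds from 3.77 to 6.25. A replicated region was in 19.5% of stretches of 220 kb.

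The KDM4C window was the only 1 of the 8 with a call in every library. The gene table places GLDC and DMAC1 as the protein-coding genes next to KDM4C, and which gene the sites lie in was not analysed here. The first site in the window, chr9:6715916-6716732, held all its normoxia calls. It had folds of 9.52, 10.9 and 11.2 in normoxia 1, 2 and 3 and of 16.2, 71.4 and 46.5 in hypoxia 1, 2 and 3. The gap was small between normoxia 3 and hypoxia 1, the hypoxia library of like extension. Values of hypoxia 2 and 3, of longer extension, are listed here and not compared with normoxia. Behind these folds stood 13, 13 and 20 summit reads in the normoxia libraries, and 23, 136 and 150 in the hypoxia libraries. All strongest summits of the 6 libraries fell within 77 bp. In its list the site ranked 3 of 75, 5 of 32 and 14 of 109 in normoxia, and 76 of 1408, 24 of 5833 and 98 of 7619 in hypoxia.

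The other replicated KDM4C site, chr9:6757486-6758057, was called in hypoxia only, with folds of 5.96, 31.8 and 23.6 in hypoxia 1, 2 and 3. It stood 41.3 to 41.4 kb from the first, whose fold was 1.97 to 2.71 times as high in the same library. So within 1 gene window 1 site had a call in all 6 lists and its neighbour in the 3 hypoxia lists alone. By the hypoxia 1 local background and each normoxia list's weakest p, the second site was near the limit of a normoxia call. Hypoxia 1 had 15 reads there, 1.24 to 1.38 times the 11 needed once scaled to each normoxia depth. That background was 5.30 times the genome-wide value, against 1 and 1.69 times in hypoxia 2 and 3. At the genome-wide value a normoxia call needed 6 reads. The normoxia background at this site is not known. Whether the pair differ in their response to oxygen was not tested. The last region, in hypoxia 3 only, had a fold of 4.31. For a length of 500 kb, 34.9% of stretches had a replicated hypoxia region and 1.82% a normoxia call.

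**Figure D2:**
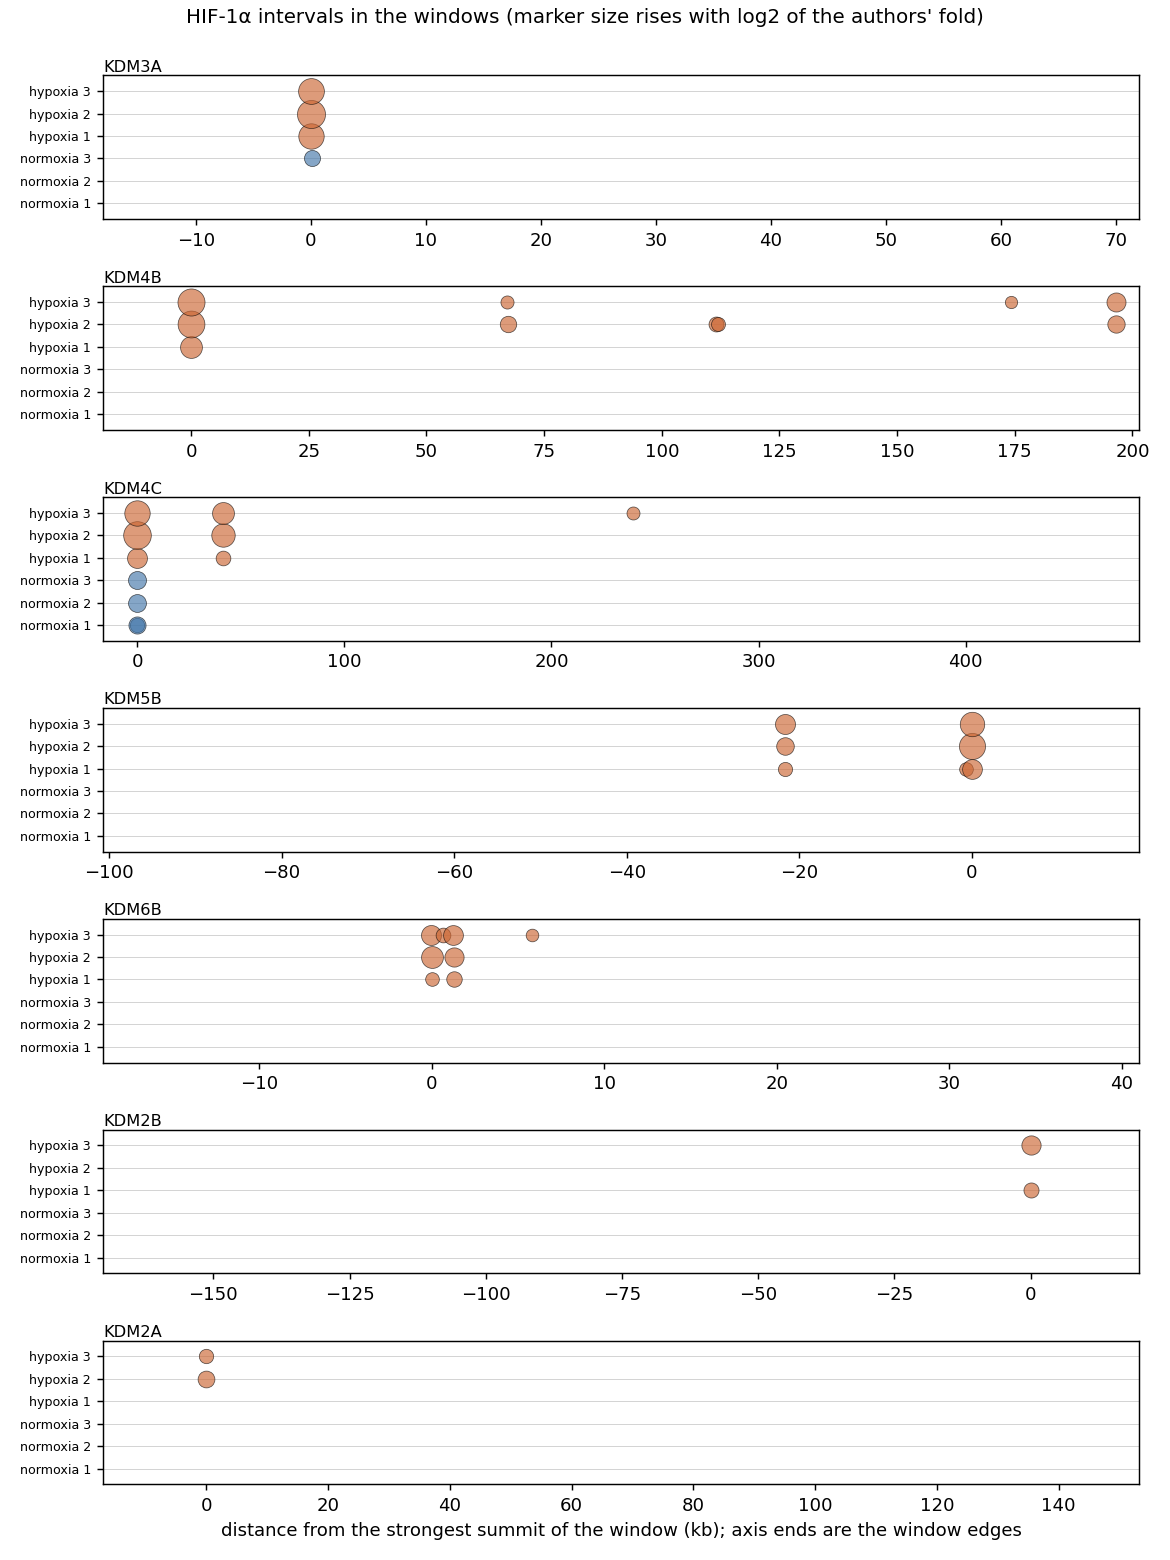
Called intervals in 7 windows, by library, against distance in kb from the strongest summit of the window, with marker size rising with log2 of the fold (blue normoxia, orange hypoxia). KDM3A has 1 position, KDM4B has 6 spread over 196 kb, KDM4C has the pair 41.3 to 41.4 kb apart of which only the left has normoxia calls, and KDM4A is not drawn because it had no call.

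KDM2A and KDM2B remove methyl marks from H3K36 and carry a zinc finger that binds unmethylated CpG. Each had 1 region called in 2 hypoxia lists and in no normoxia list. At KDM2A, chr11:66886712-66886961, the fold was 8.91 in hypoxia 2 and 5.61 in hypoxia 3. At KDM2B, chr12:122020031-122020390, it was 6.41 in hypoxia 1 and 14.3 in hypoxia 3, with summits 2 bp apart. These were the weakest of the replicated genes, and each rests on the threshold. With a fold of at least 6 KDM2A was called in 1 hypoxia list, and with −log10 q of at least 5 KDM2B was called in 1. Stretches of 170 and 190 kb held a replicated region in 16% and 17.5% of cases.

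KDM5B removes di- and trimethyl marks from H3K4, a mark of active promoters. Its window had 2 regions, both in all 3 hypoxia lists and in no normoxia list. The stronger, chr1:202779760-202781000, had folds of 15.7, 53.2 and 38.5 in hypoxia 1, 2 and 3 and was 1241 bp long, the longest of the 18 regions. It held several summits in each library, and hypoxia 1 split it into 2 intervals. Hypoxia 2 and 3 had a strong summit of 125 and 124 reads and 2 weaker ones of 16 to 23 reads to its left. The second region, chr1:202758826-202759148, lay 21.7 kb away with folds of 5.43, 10.4 and 16.5. It was weaker than the first in every hypoxia library, at 0.345, 0.195 and 0.429 times its fold. A replicated region was in 12.1% of stretches of 120 kb.

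KDM6B removes di- and trimethyl marks from H3K27, the Polycomb mark. Its 60 kb window, the shortest, had 4 regions, 2 of them in all 3 hypoxia lists and none with a normoxia call. The left one, chr17:7738664-7739310, had folds of 4.88, 23.4 and 16.4 in hypoxia 1, 2 and 3. The right one, chr17:7740034-7740462, had folds of 6.92, 14.2 and 15.8. Their summits were 1.24 to 1.29 kb apart, and which was higher depended on the library: the right one in hypoxia 1, the left one in hypoxia 2 and 3. The 2 others were called in hypoxia 3 only, with folds of 6.0 and 4.01. Stretches of 60 kb held a replicated region in 6.72% of cases. The gene table places DNAH2 and TMEM88 next to KDM6B, and which of these genes the sites lie in was not analysed here.

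**Figure D3:**
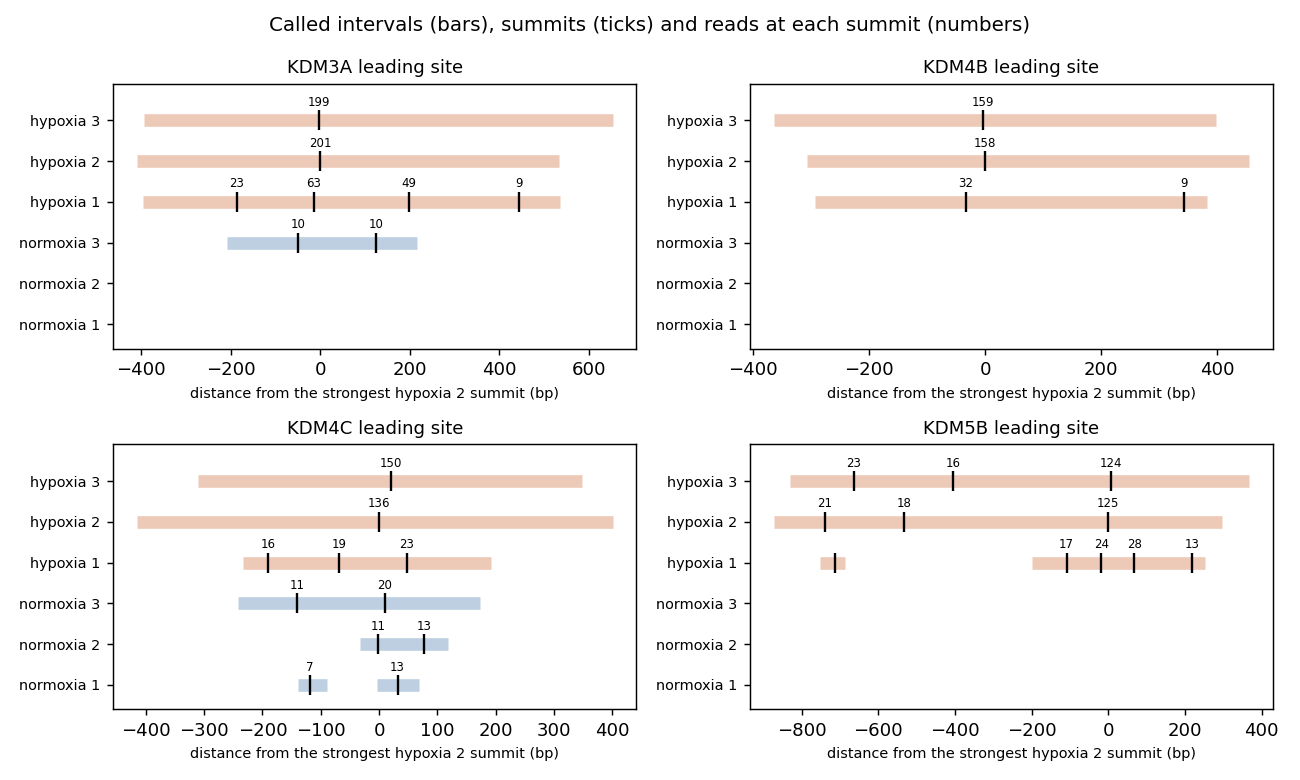
Called intervals (bars), summits (ticks) and reads at each summit (numbers) at the leading sites of KDM3A, KDM4B, KDM4C and KDM5B, by library, against distance in bp from the strongest summit in hypoxia 2. At KDM3A normoxia 3 has 10 reads at each of 2 summits against 63 at the highest of hypoxia 1, and at KDM4C the normoxia summits have up to 20 reads against 23 in hypoxia 1; 1 tick without a number allowed more than 1 whole number of reads.

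Among the 5 genes with a call in all 3 hypoxia lists, the geometric mean of the strongest fold was 56.5 at KDM3A, 45.1 at KDM4B, 37.7 at KDM4C, 31.8 at KDM5B and 13.8 at KDM6B. The first 2 steps of this order did not hold in all libraries. KDM3A was above KDM4B in 2 of 3 lists, with a log2 ratio of 0.32 ± 0.67 (SD, n = 3), and KDM4B above KDM4C in 2 of 3, with 0.26 ± 0.42. KDM4C was above KDM5B in 3 of 3 lists, by a log2 ratio of 0.24 ± 0.19. KDM5B was above KDM6B in 3 of 3, by 1.20 ± 0.03, the only step many times larger than its spread. That spread is not of 1 KDM6B site: the strongest was the right one in hypoxia 1 and the left one in hypoxia 2 and 3. In hypoxia 1 the right one had a fold of 6.92 and the left one 4.88. Since the genes were ordered by these values, no test was made of them.

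Reads at a summit can be compared between hypoxia 1 and normoxia, whose extensions are alike. At KDM3A hypoxia 1 had 63 reads and normoxia 3 had 10, a ratio of 5.96 after correction for depth, with an exact 95% interval of 3.03 to 13.0. At KDM4C hypoxia 1 had 23 reads. Against normoxia 1, 2 and 3 the corrected ratio was 1.79 (0.869 to 3.84), 1.61 (0.781 to 3.46) and 1.09 (0.571 to 2.09). Each of these 3 intervals includes equality, so no difference between hypoxia 1 and normoxia was detectable at KDM4C at this depth. The intervals cover counting error only and compare pairs of libraries, not the conditions.

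KDM3A stood near the top of such ratios against normoxia 3, the only normoxia library that called it. Of the 72 regions called in both hypoxia 1 and normoxia 3 at a local background under 10 times the genome-wide value, KDM3A was 3rd from the highest and KDM4C was 58th. The median over the 72 was 1.61. Regions that normoxia 3 did not call, the leading KDM4B site among them, have no such ratio and are left out of these ranks. Against normoxia 1 and 2 KDM4C was 16th of 24 and 15th of 22, with medians of 2.20 and 1.94. So KDM4C lay under the median in all 3 comparisons, which share the hypoxia 1 library.

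For sites with no normoxia call, the reads that a call would have needed were worked out from each list's weakest p and the hypoxia 1 local background scaled to that library's depth. The number was 6 to 11 reads. At KDM3A a call in normoxia 1 or 2 needed 6 reads, and the hypoxia 1 reads scaled to their depth were 63.7 and 57.3. The leading sites of KDM4B and KDM5B also had at least 2 times the number needed in all 3 normoxia libraries. At KDM4B 32 reads in hypoxia 1 stood against 6, 7 and 6 needed in normoxia 1, 2 and 3, and at KDM5B 28 reads against 8, 9 and 8. At these sites as many reads as in hypoxia 1, scaled for depth, would have been within reach of a normoxia call at the hypoxia 1 local background. Whether the immunoprecipitation worked equally well in the normoxia libraries was not tested.

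The weaker sites, the second KDM4C site among them, were nearer to the limit. In normoxia 1, 2 and 3 the scaled reads reached the needed number at 8 of 8, 6 of 8 and 6 of 7 replicated sites that hypoxia 1 called and that library did not, and reached 2 times that number at only 3, 3 and 2. For the left KDM6B site they fell short in normoxia 2 and 3, at 7.27 against 9 and 7.56 against 8 needed. For the weaker KDM5B site they fell short in normoxia 2, at 8.18 against 9. At that local background and each list's weakest p, a normoxia site as strong as in hypoxia 1 could have gone uncalled there. The background was 2.65 times the genome-wide value at both sites in hypoxia 1, and 1.09 to 1.83 times in hypoxia 2 and 3. The normoxia background at these sites is not known. A lower one, or a cutoff looser than the weakest p, would need fewer reads.

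**Figure D4:**
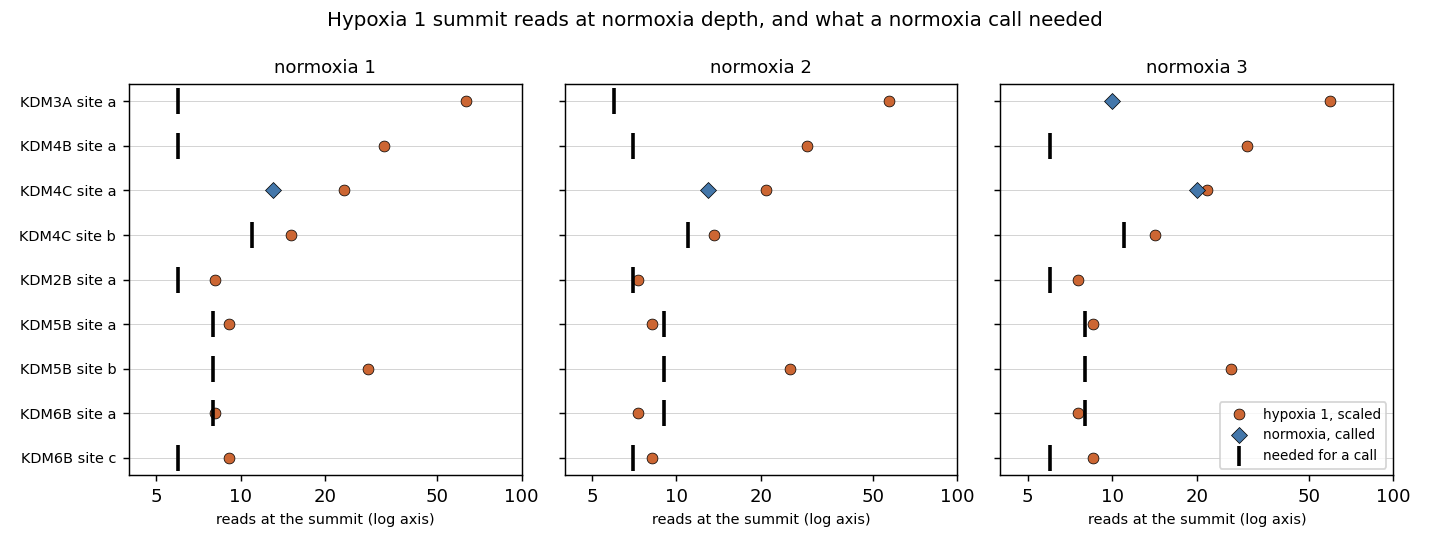
Summit reads on a log axis at the sites called in hypoxia 1, for each normoxia library. Orange circles are hypoxia 1 reads scaled to that library's depth, and blue diamonds the reads of a normoxia call. Black bars are the reads a call needed at the hypoxia 1 local background and that normoxia list's weakest p. Sites are lettered by position within a window. KDM3A, KDM4B site a and KDM5B site b lie well to the right of the bars, the KDM6B, KDM2B, weaker KDM5B and second KDM4C sites lie close to them, and at KDM4C site a circle and diamond are near each other in normoxia 3.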

How the data were processed

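The 6 HIF-1α libraries have 1 narrowPeak list each, called per sample. The 3 inputs were not analysed here, and which control the calls used was not examined. Per the submitters' processing notes, the authors used BWA 0.7.17, MACS2 and hg19. For MACS2, version, settings and handling of duplicates are not stated in these sources. The deposited score is 10 times −log10 q cut to a whole number, in all 16463 rows. The deposited fold is the authors' ratio of summit to local background, with 1 added to each. The −log10 p and −log10 q are likewise as deposited, from the peak caller.

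Rows sharing both ends made 1 interval, described by its summit of smallest p, positions were written 1-based, and intervals belonged to a gene when a summit lay in its window. Intervals sharing at least 1 bp were joined into regions. Summit reads were recovered by trying whole numbers n: with the background set so that (n + 1)/(background + 1) equals the fold, the Poisson tail above n had to match −log10 p within 0.001. All 16463 rows gave whole reads, 16298 of them a single number, and 43 of the 44 member intervals did. Total reads are not in the lists, so depth is the lowest local background divided by the shortest interval, taken as the fragment extension. Median summit reads were 9 to 24 per list, which limits the precision of any interval.

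Groups came from the sample titles. Interval counts, genes called and list shares were compared by two-sided exact permutation tests over libraries; regions got counts only, beside the same share over all regions or over stretches of the window's length. Shares and read ratios have exact binomial (Clopper-Pearson) 95% intervals. Every gene was named, with each region of at least 2 hypoxia lists or any normoxia list; others were given as counts and ranges. Genes, windows and lists were chosen with earlier results of these data known. Alternatives were stricter q and fold, 1 common p, wider windows, other joins, equal list length, each library left out, and a replicate block. Promoters came from a RefSeq table of GRCh38.p14; no coordinate was moved between builds. The code was tested on simulated data. Python 3.11.15, numpy 2.4.6, scipy 1.17.1 and matplotlib 3.10.9 were used.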

Additional observations from a re-analysis of the deposited data

How the results depend on the processing

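The difference in intervals kept its direction under all 15 alternatives, from 0.333 with 32 intervals per list to 15.3, and that in genes called under all 15, from 0.333 to 5.33. None of these tests could reach significance: the smallest exact p is 0.1, and 0.2 with a library left out. The list share kept its direction under 14 of 15 alternatives and reversed to 1.04 at 32 intervals per list; without 1 library each it ran from -2.51 to -1.87. Replicated regions numbered 8 to 12 over 13 alternatives and were without a normoxia call in 75% to 91.7%. The KDM4C read ratio to normoxia, 1.46 as a geometric mean, ran from 1.32 to 1.70. With a replicate block the differences were 11.3, 5 and -2.16, each with exact sign-flip p = 0.25, the smallest that 3 pairs allow. Same-numbered libraries correlated at 0.0835, 0.0310 and -0.0126, and 3 of 6 correlated best with their own number. These correlations cannot settle whether same-numbered libraries share a culture or a control. At the hypoxia 1 local background and each list's weakest p, 6 to 11 reads were needed for a normoxia call. What depth contributes to missing calls at weak sites was not tested. A median of 9 to 24 reads lay behind an interval.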
